A study of Mus musculus with 10 samples.

Results

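Regions of open chromatin listed in mouse embryonic fibroblasts (MEF) and in none of 3 other cell types are described here. Sites deposited for MEF, for neural stem cells (NSC), for epiblast stem cells (EpiSC) and for embryonic stem cells (ESC), in 4 lists, were merged on the autosomes wherever they shared 1 bp or more. This gave 1121520 regions, of which 182048 (16.2%) held sites of the MEF list and of no other. These are called MEF-only regions, and each of them is 1 MEF site, since no sites of the MEF list overlap each other. The members were chosen by the presence and absence of sites in these same lists, so their number, their absence from other lists and their values are a description, with no test.

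The lists come from FAIRE-seq, which sequences the DNA that is recovered from sheared, formaldehyde-fixed chromatin after phenol extraction, a fraction rich in DNA free of nucleosomes. The labels name 10 samples, 2 for each of the 4 cell types and 2 of sheared genomic DNA, and 1 list per cell type was analysed. MEF came from E16.5 embryos and were grown in DMEM with 10% fetal bovine serum. ESC were E14 cells in N2/B27 medium with 1 uM of a MEK inhibitor, 3 uM of a GSK3 inhibitor and LIF. EpiSC were of the E3 line, expanded on MEF feeders in medium conditioned by MEF with 5 ng/ml FGF2, and moved off the feeders onto fibronectin before crosslinking. NSC were derived from ES cells and kept in N2B27 with 10 ng/ml each of FGF2 and EGF. MEF are a primary culture from whole embryos as far as the labels tell, with no clone or sorted cell type named. Of the labels on the MEF samples, the source field speaks of NSC chromatin while the title and the cell type field speak of fibroblasts; the title was followed. It is unknown whether a list stands for 1 replicate or for both, and how deep the libraries were, and no replicate spread can be given. A region is therefore MEF-only in the sense that no other list names a site there, which does not show that the chromatin was closed in the other cells. No gene annotation or genome of the build of the files was used here, so the labelled cell type could not be set against the genes that define it, and regions are named by position.

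Fibroblasts are the connective tissue cells that lay down collagen and other matrix. Open chromatin marks promoters, enhancers and other regulatory elements, and promoters tend to be open in many cell types whereas distal enhancers are more often restricted to 1 lineage. ESC and EpiSC represent earlier and later pluripotency, and NSC, like MEF, a committed lineage, so a region listed in MEF alone is set here against both kinds of cell.

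MEF-only regions made up the greatest single share of the MEF list. They held 182048 of its 424647 autosomal sites, or 42.9% (exact 95% interval 42.7 to 43.0). A further 17.6% of MEF sites lay in regions shared with NSC alone, 5.16% in regions shared with EpiSC alone and 4.70% in regions shared with ESC alone. Regions of all 4 cell types took 14.5%. In the other lists the sites found nowhere else were 47.6% of NSC sites, 39.8% of ESC sites and 30.7% of EpiSC sites, so that MEF stood between NSC and ESC. By bases, MEF-only regions held 34.4% of the DNA in the MEF list, 56.8 Mb, since they were narrower than the rest. Leaving out 1 comparison list raised the number of MEF-only regions to 266955 without NSC, to 207641 without EpiSC and to 205855 without ESC. These lists differ in length, with 551649 NSC, 387312 EpiSC and 438802 ESC autosomal sites. The part of list length in these rises was not measured.

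MEF-only regions were narrow, with a score close to that of other MEF sites. Their median width was 282 bp (quartiles 202 and 383), against 365 bp (254 and 536) for MEF sites shared with another list. NSC-only regions, with 286 bp, and EpiSC-only regions, with 275 bp, were as narrow, and ESC-only regions were wider at 328 bp. Regions under 150 bp, the shortest of the DNA fragments selected for sequencing, numbered 19225 (10.6%), against 5.72% of the shared MEF sites. At the other end 22 of the 182048 MEF-only regions were 2 kb wide or more. This width was reached by 19 of 118716 EpiSC-only, 249 of 262424 NSC-only and 821 of 174760 ESC-only regions. The score that the authors gave each site, whose unit is not stated, had a median of 3.35 (quartiles 2.25 and 4.96) in MEF-only regions and 3.30 (2.03 and 4.97) in shared MEF sites. The median score differed between the kinds of sharing. MEF sites shared with ESC alone had a median score of 2.28 and those shared with ESC and EpiSC 2.46, both below the MEF-only regions, although these sites were wider, at 344 and 370 bp. Those shared with EpiSC alone, at 3.07, and with ESC and NSC, at 3.04, were also below. MEF sites shared with NSC alone scored 3.64, above the MEF-only regions. Those shared with EpiSC and NSC, at 3.56, and those of all 4 lists, at 3.465, were above them too.

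Width separated MEF-only from shared sites step by step. Of MEF sites under 100 bp, 58.0% (56.9 to 59.1) were MEF-only. The share was 50.1% from 250 to below 300 bp, 27.8% from 500 to below 700 bp, 7.42% from 1000 to below 2000 bp and 1.87% (1.18 to 2.82) from 2 kb upward. A wide site has more bases that can meet another list, so the rule itself lowers this share. The mean over the 4 lists, each for its own sites, fell from 58.1% to 4.04% over the same classes. MEF lay above that mean from 100 to below 500 bp and below it from 500 bp upward.

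**Figure D1:**
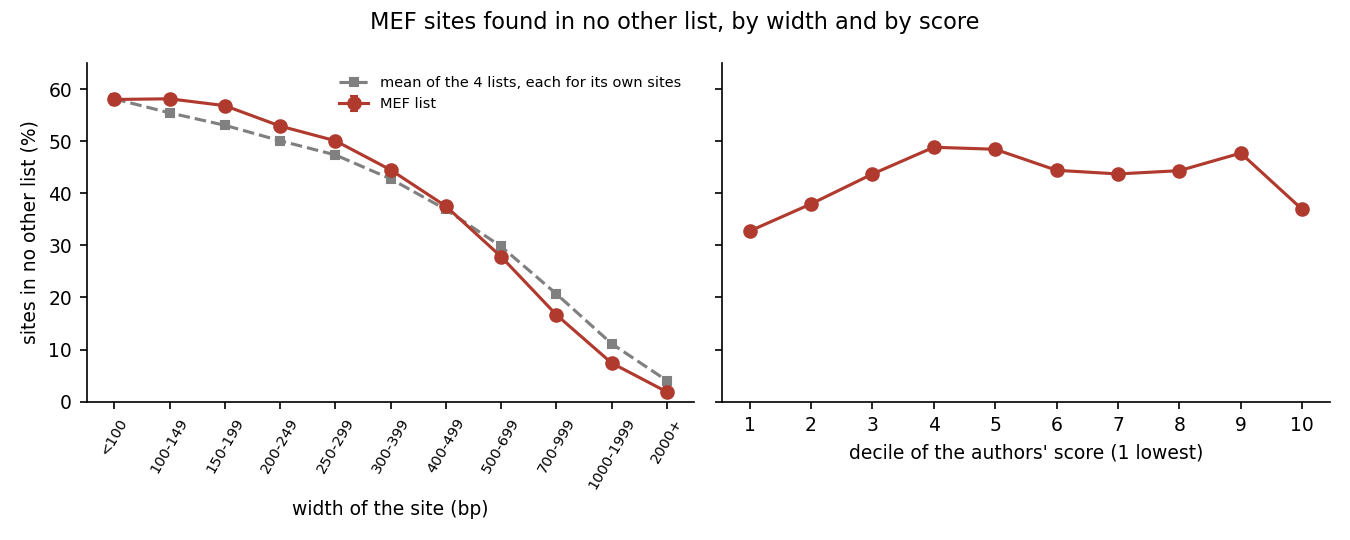
Share of MEF sites in no other list (y axis, percent, with exact 95% intervals) by width in bp (left) and by decile of the authors' score (right), with the mean of the 4 lists by width as grey squares. The share falls from 58.0% in sites under 100 bp to 1.87% in sites of 2 kb or more, and it is lowest in the first and the last decile of scores, at 32.7% and 36.9%.

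The score did not order the MEF-only share in this way. By deciles of the score, it was lowest in the first, at 32.7% (32.3 to 33.2), rose to 48.8% in the fourth, stayed between 43.7% and 48.4% up to the ninth, and was 36.9% (36.5 to 37.4) in the last. Widths followed the opposite course, with a median of 403 bp in the first decile, 251 bp in the fourth and 451 bp in the last. Held to sites from 150 to below 250 bp wide, the MEF-only share went from 41.2% at scores of 1 to 2 up to 66.1% at scores of 7 to 10, and was 56.5% above. In sites from 500 to below 1000 bp it ranged between 19.5% and 28.5% with no such rise. Narrow MEF sites of high score were thus the ones most often found nowhere else, up to 69.8% (68.2 to 71.3) of those under 150 bp with scores of 7 to 10. At scores of 10 or more, 3197 of 9799 MEF sites were MEF-only, and at 20 or more 33 of 79.

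Just inside and just outside the limit of the rule, sites looked alike. There were 1783 MEF-only regions that ended within 10 bp of a site of another list, with a median width of 270 bp and a median score of 3.26. The 1708 MEF sites that overlapped another list by 10 bp at most had medians of 271 bp and 3.23.

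The distance from MEF-only regions to open chromatin of other cells was measured next. The median gap to the nearest site of any other list was 772 bp (quartiles 289 and 1914). A site of another list began or ended within 1 kb of 57.6% of them, within 5 kb of 91.6%, and less than 200 bp away from 17.9%. For NSC-only regions the share within 1 kb was 58.0%, for ESC-only 65.3% and for EpiSC-only 66.6%, and within 5 kb these shares were 94.1%, 97.5% and 96.5%, so that MEF-only regions had the lowest share at both distances. Their share within 1 kb was 47.6% when sites under 200 bp apart were merged and 39.0% with the 50% of highest scores. The nearest NSC site was at a median of 1527 bp from an MEF-only region, the nearest EpiSC site at 2786 bp and the nearest ESC site at 4352 bp. Among the other lists the nearest site was of NSC for 53.9% of MEF-only regions, of EpiSC for 26.1% and of ESC for 19.95%, whereas these lists made up 40.04%, 28.1% and 31.8% of the sites that could be nearest. With lists of equal length, NSC was nearest for 47.7%. There each of these lists made up the same share of the sites, so 40.04% is not the value to set beside it. Other MEF sites were closer than any of these, at a median of 1444 bp.

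At greater distances the lists parted in the same order. Between 1 and 1.5 kb from the centre of an MEF-only region the density of MEF sites was 1.41 times the autosomal mean of that list. NSC stood there at 1.11 times its own mean, EpiSC at 0.94 times and ESC at 0.77 times. These ratios changed slowly: at 300 to 500 kb they were 1.13 for MEF, 1.04 for NSC, 0.95 for EpiSC and 0.87 for ESC. The surroundings of MEF-only regions thus held fewer ESC sites than the autosomal mean. The rule takes part in this, since MEF sites that overlap an ESC site are left out, and its part was not measured. Around regions shared by NSC and MEF alone, of which there were 71554, the surroundings at 1 to 1.5 kb differed, with NSC at 1.93 and MEF at 1.74 times their means, EpiSC at 1.05 and ESC at 0.83.

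**Figure D2:**
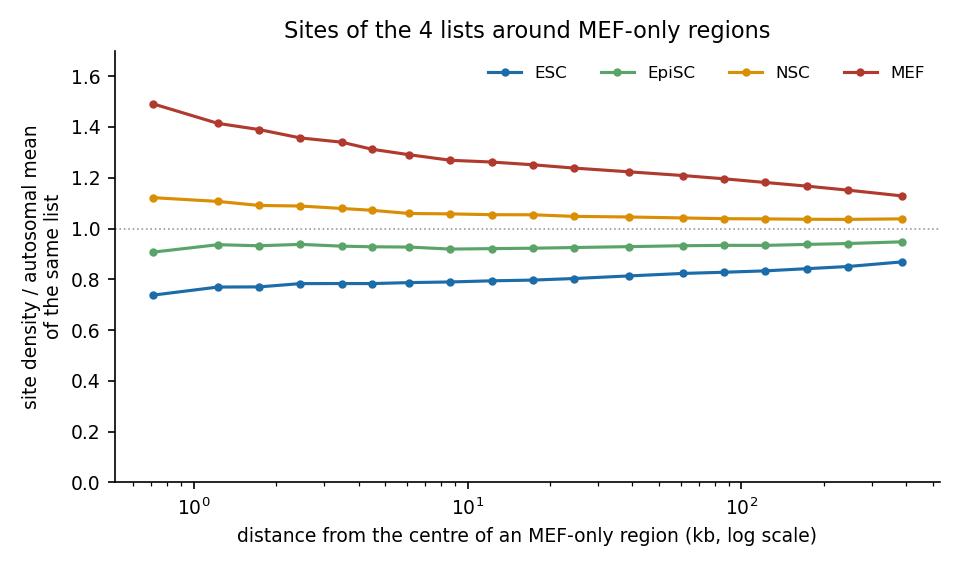
Density of sites of each list (y axis, as a ratio to the autosomal mean of the same list) against distance from the centre of MEF-only regions (x axis, kb, log scale), from 0.5 kb outward. MEF lies above the others at every distance, falling from 1.49 to 1.13, and ESC lies lowest, rising from 0.74 to 0.87.

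The regions next in line along the chromosome were compared with all regions. Of the neighbours of MEF-only regions, 27.6% were MEF-only themselves, which is 1.703 times their share of all regions. Each single-list class followed itself more often than its share. For the next region along, this ratio was 1.90 for ESC-only, 1.56 for EpiSC-only and 1.52 for NSC-only regions. Neighbours shared by EpiSC and MEF were present at 1.34 times and those shared by NSC and MEF at 1.18 times their share. NSC-only neighbours, at 1.06 times, and EpiSC-only neighbours, at 1.028 times, were close to theirs, and ESC-only neighbours stood at 0.64 times. Regions of all 4 cell types, at 0.54 times, those of ESC and EpiSC, at 0.52 times, and those of ESC, EpiSC and NSC, at 0.45 times, were rarer beside them. The rule may take part in these ratios, since the members were chosen for lacking sites of the other lists. A region open in all 4 cell types lay within 5 kb of 13.3% of MEF-only regions, compared with 16.7% of NSC-only, 18.9% of EpiSC-only and 27.0% of ESC-only regions. The median distance to one was 47609 bp for MEF-only and 12946 bp for ESC-only regions. MEF-only regions were thus the farthest of the 4 single-list classes from the commonly open regions.

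Counted in 23717 autosomal windows of 100 kb, MEF-only regions were found in most windows. Windows held a median of 7 and at most 55, and 834 windows (3.52%) held none, compared with 3.10% for NSC-only, 8.27% for EpiSC-only and 15.97% for ESC-only regions. The richest 10% of windows contained 24.9% of MEF-only regions, against 26.6% for EpiSC-only, 29.6% for NSC-only and 32.8% for ESC-only regions in their own richest windows. In the windows richest in MEF-only regions, the last decile, ESC sites averaged 8.25 per window, against 27.8 in the decile with the fewest, a ratio of 0.30 (0.32 with lists of equal length). EpiSC sites went from 19.7 to 11.7. NSC sites went from 19.4 to 21.6, a ratio of 1.12 (1.42 with lists of equal length). Regions of all 4 cell types fell from 2.65 to 0.96 per window, and those of NSC and MEF rose from 1.20 to 4.99. The rule takes part in this, since an ESC site that overlaps an MEF site removes it from the class. Over all MEF sites, the number in a window rose with the number of ESC sites, with a Spearman correlation of 0.34 across windows, whereas for MEF-only regions the correlation with ESC sites was -0.30, with EpiSC sites -0.20 and with NSC sites 0.07. Windows are not independent, and they share the libraries and the mappable part of the genome.

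**Figure D3:**
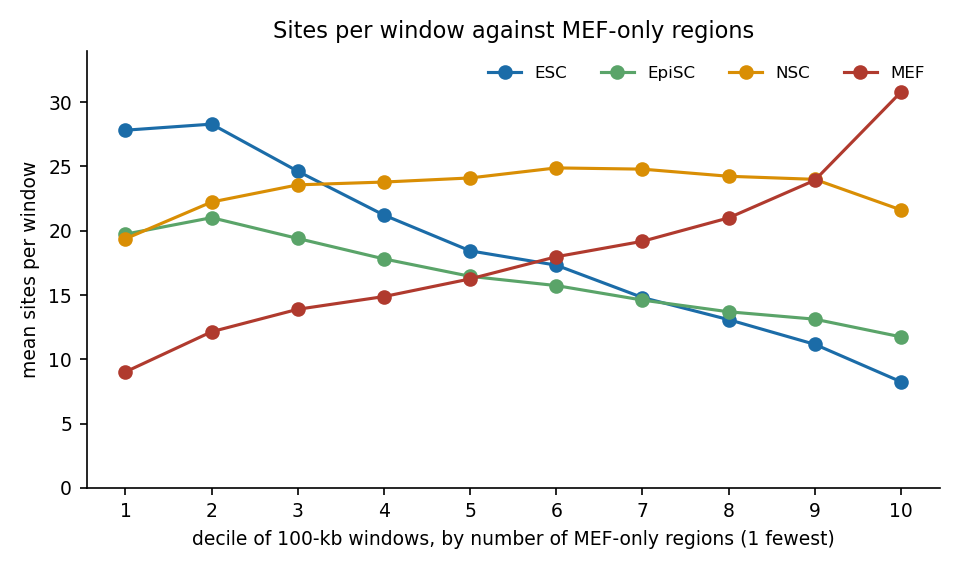
Mean number of sites of each list per 100-kb window (y axis) in deciles of the windows ordered by their number of MEF-only regions (x axis). From the first to the last decile ESC falls from 27.8 to 8.25, while NSC stays between 19.4 and 24.9. MEF rises from 9.02 to 30.8, but the MEF-only regions that order the windows are counted among these MEF sites. The rise of MEF therefore follows in part from the ordering.

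No window of 100 kb held 5 or more MEF-only regions without a region of another combination, a condition met by 8 windows for ESC-only regions and by 2 each for EpiSC-only and NSC-only regions. For MEF-only regions there were 39 such windows of 50 kb, and 13 of 100 kb with the 50% of highest scores. MEF-only regions did outnumber each of the other single-list classes in 5462 windows (23.0%), compared with 8825 for NSC-only, 6325 for ESC-only and 1725 for EpiSC-only regions. With lists of equal length MEF-only regions led in 28.4%. They formed more than 50% of all regions in 933 of the 20602 windows that held 20 regions or more, and up to 95.8% in a single window. NSC-only regions did so in 1729 of these windows, ESC-only in 239 and EpiSC-only in 47. The highest shares of these classes in a window were 94.8%, 95.7% and 86.4%.

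On the scale of 1 Mb the longest stretch led by MEF-only regions ran over 11 bins on chromosome 15, from 14000001 to 25000000. It was sparse rather than dense: MEF had 114 sites per Mb there, or 0.66 times its autosomal mean, NSC 0.33 times, EpiSC 0.16 times and ESC 0.10 times theirs. Of its 2229 regions, 1038 (46.6%) were MEF-only, 608 NSC-only, 174 EpiSC-only, 142 ESC-only and 5 open in all 4 cell types. ESC-only regions led a stretch of 34 bins on chromosome 4 and NSC-only regions one of 28 bins on chromosome 14.

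Dense groups of MEF-only regions had another make-up. The windows of 100 kb with the most of them lay on chromosomes 2 and 8. On chromosome 2 the window from 117500001 to 117600000 held 55 MEF-only regions, and in it the MEF list had 73 sites, NSC 16, EpiSC 9 and ESC 3. The window before it, from 117400001, held 50, with 61 sites of MEF, 9 of NSC, 9 of EpiSC and 4 of ESC. Another, from 117700001 to 117800000, held 49, with 68 sites of MEF, 22 of NSC, 11 of EpiSC and 15 of ESC. In each of them MEF had the most sites, and no other list had more than 22.

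On chromosome 8 the window from 105200001 to 105300000 held 50 MEF-only regions, with 66 MEF sites against 5 of NSC, 13 of EpiSC and 14 of ESC. The one from 105700001 to 105800000 held 49, with 60 MEF sites against 8 of NSC, 17 of EpiSC and 4 of ESC. Taken from the first to the last of these windows, the 400 kb on chromosome 2 had 187 MEF-only regions among 301 (62.1%), and MEF sites at 3.74 times their autosomal mean. NSC was there at 0.75, EpiSC at 0.69 and ESC at 0.46 times its mean. The 600 kb on chromosome 8 had 215 among 375 (57.3%), with MEF at 2.78, EpiSC at 0.89, NSC at 0.53 and ESC at 0.38 times. These stretches were delimited after their values were seen. They were picked for their MEF-only regions, so the high density of MEF sites follows in part from the choice. MEF-only regions in them were somewhat wider and higher in score than elsewhere, with medians of 329 bp and 4.32 on chromosome 2 and 338 bp and 4.36 on chromosome 8.

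**Figure D4:**
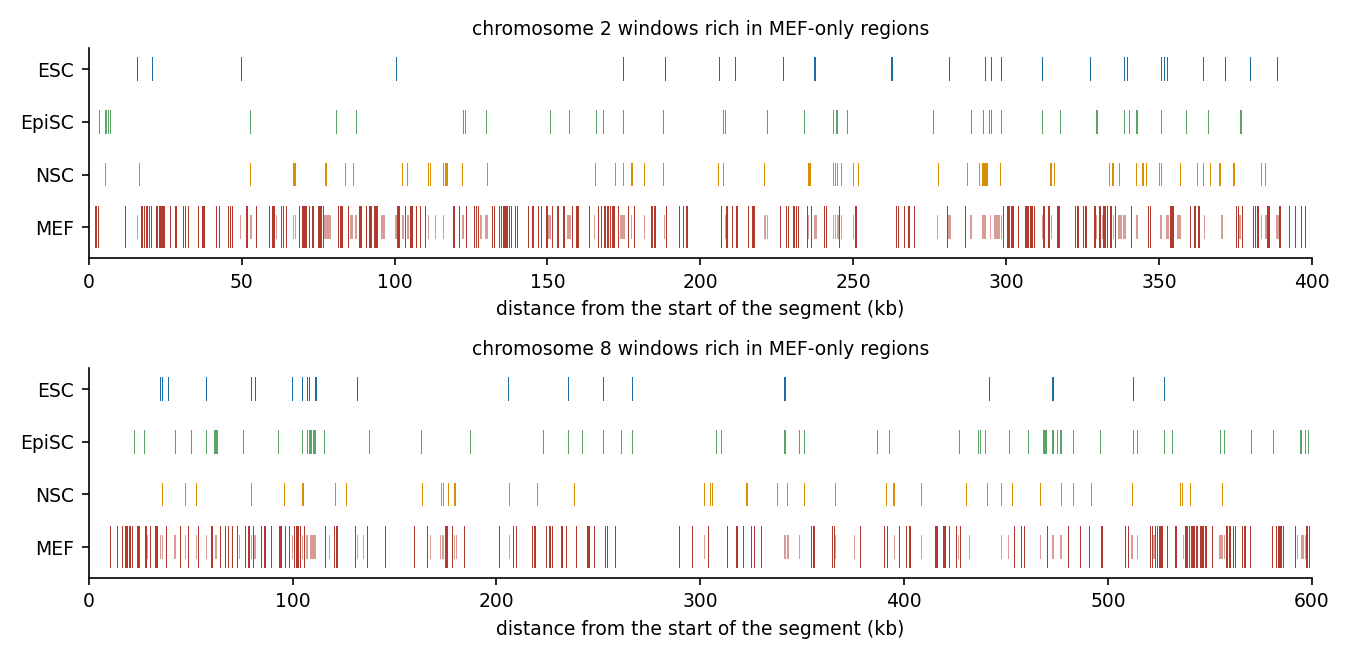
Sites of the 4 lists (rows) along the 400 kb of chromosome 2 and the 600 kb of chromosome 8 richest in MEF-only regions, by distance from the start of the segment in kb. Tall bars are the 187 and 215 MEF-only regions and short bars are all other sites. The other rows hold 33 ESC, 43 EpiSC and 67 NSC sites on chromosome 2 and 41, 84 and 71 on chromosome 8, against 257 and 287 MEF sites.

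Counted in bins of 1 Mb, chromosome 8 from 105000001 to 106000000 came first, with 357 MEF-only regions beside 54 EpiSC-only, 49 NSC-only and 18 ESC-only. The bin on chromosome 4 from 64000001 to 65000000 followed with 316 MEF-only and 3 ESC-only regions. The one on chromosome 2 from 117000001 to 118000000 held 305 and the one on chromosome 19 from 31000001 to 32000000 held 266. The median bin held 72. In the bin on chromosome 5 from 47000001 to 48000000, 235 MEF-only regions made up 70.8% of all regions, the highest share of any bin with 20 regions or more.

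MEF-only regions also followed each other without interruption. Most stood alone between regions of other combinations (55.0%), and 11937 (6.56%) belonged to one of 1929 uninterrupted runs of 5 or more. The same share was 11.6% for NSC-only, 6.01% for ESC-only and 1.21% for EpiSC-only regions. Of all regions these classes made up 23.4%, 15.6% and 10.6%, and MEF-only regions 16.2%. The shares in runs followed the order of class size, so they do not rank the classes by clustering. Members of such runs had a median score of 3.88 against 3.32 for the other MEF-only regions, at similar widths of 287 and 281 bp. Runs of 10 or more numbered 104 and spanned a median of 29.6 kb.

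The longest runs were on chromosomes 4 and 7, with 19 MEF-only regions each. The run on chromosome 4, from 64588414 to 64618274, covered 27.6% of 29861 bp with a median score of 5.35 and a highest of 21.9. The nearest EpiSC site was 437 bp outside it, the nearest NSC site 2862 bp and the nearest ESC site 33987 bp. The run on chromosome 7, from 101949941 to 101998501, covered 15.4% of 48561 bp with a median score of 5.18, and NSC, ESC and EpiSC sites were 276, 12856 and 70767 bp away. Those next in length were on chromosome 5 from 47770625 to 47823780 and on chromosome 15 from 54301972 to 54323584, with 17 regions each, and on chromosome 2 from 117531833 to 117550048, with 16. In these 3 runs the nearest ESC site was at 49407, 39509 and 24663 bp, and a site of EpiSC or NSC was always within 1165 bp. All 5 of the longest runs lay at least 12856 bp from any ESC site and at most 1165 bp from a site of EpiSC or NSC. By definition a run holds no site of another list and ends beside a region that does. These distances therefore follow in part from how runs are built. Over all MEF-only regions the median gap to a site of any other list was 772 bp.

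The 10 MEF-only regions of highest score were not spread over the genome. A stretch of chromosome 7 from 54839015 to 54866332 held 7 of them, with scores from 23.7 to 30.7. Each of these 7 lay 98 to 163 bp from the nearest other MEF site, so they belong to the same dense stretch and are not separate places. The widest of these 7, from 54862620 to 54864864, was 2245 bp wide with a score of 26.3, and the NSC, EpiSC and ESC sites nearest to it were 17484, 17427 and 116498 bp away. The first of all, on chromosome 4 from 149131438 to 149131499, was of another kind: 62 bp wide, with a score of 35.0, and with ESC, EpiSC and NSC sites 896, 857 and 968 bp away. The remaining 2 were on chromosome 4 from 42086451 to 42086634 (184 bp, score 23.0) and on chromosome 17 from 81291902 to 81292528 (627 bp, score 22.6), and both had other lists nearby. For the former the nearest NSC site was at 509 bp and the nearest EpiSC site at 518 bp, and for the latter these were at 257 and 1023 bp.

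The 10 widest MEF-only regions fell into 2 with scores near the bottom of the list and 8 with scores of 6.66 or more, above the upper quartile of MEF-only regions. The widest lay on chromosome 7 from 101244568 to 101248970, with 4403 bp and a score of 17.1, and the nearest NSC, EpiSC and ESC sites were 1162, 10707 and 10775 bp away. Next came chromosome 1 from 171623669 to 171627068, with 3400 bp and a score of 10.1, and an EpiSC site 243 bp away. In contrast, the 2499 bp on chromosome 12 from 111325326 to 111327824 and the 2223 bp on chromosome 14 from 70090725 to 70092947 had scores of 1.51 and 1.48, among the lowest in the list. The other 6 scored between 6.66 and 27.3, and 3 of them lay in the stretch of high scores on chromosome 7. Among the 10 widest, 2 were also among the 10 of highest score.

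Isolated MEF-only regions were rare. Of 182048, there were 42 more than 50 kb from any site of another list. Chromosome 7 held 12 of these 42, and 9141 of all 182048 MEF-only regions. In the other classes the regions this remote were 137 of 174760 ESC-only, 39 of 262424 NSC-only and 36 of 118716 EpiSC-only regions. The classes differ in size, so the counts alone do not rank them. Relative to class size, such regions were most frequent among ESC-only and least frequent among NSC-only regions. The most remote MEF-only region, a site of 136 bp on chromosome 7 from 16000065 to 16000200, was 400822 bp away from the nearest. Its score was 2.23. The other 4 of the 5 most remote were on chromosomes 1, 3 and 7, at 129673 to 146964 bp.

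Over the autosomes the density of MEF-only regions varied less than that of MEF sites as a whole. It ranged from 56.9 per Mb on chromosome 14 to 81.4 per Mb on chromosome 2, with a coefficient of variation of 8.68% over 19 chromosomes, against 11.2% for all MEF sites and 14.03% for the sites of the other 3 lists together. As a share of MEF sites, MEF-only regions were fewest on chromosome 11, at 35.0% (34.4 to 35.5), and most frequent on chromosome 3, at 48.7% (48.1 to 49.3). Chromosome 11 was the densest in MEF sites (221 per Mb) and in those of the other lists (785 per Mb), yet its 77.3 MEF-only regions per Mb were close to the 78.1 on chromosome 3, where MEF had 160 and the other lists 471 sites per Mb. Among sites 250 to 350 bp wide the shares were 40.7% on chromosome 11 and 53.1% on chromosome 3. The median score of MEF-only regions went from 3.11 on chromosome 3 to 3.78 on chromosome 8, and their median width from 274 to 288 bp.

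**Figure D5:**
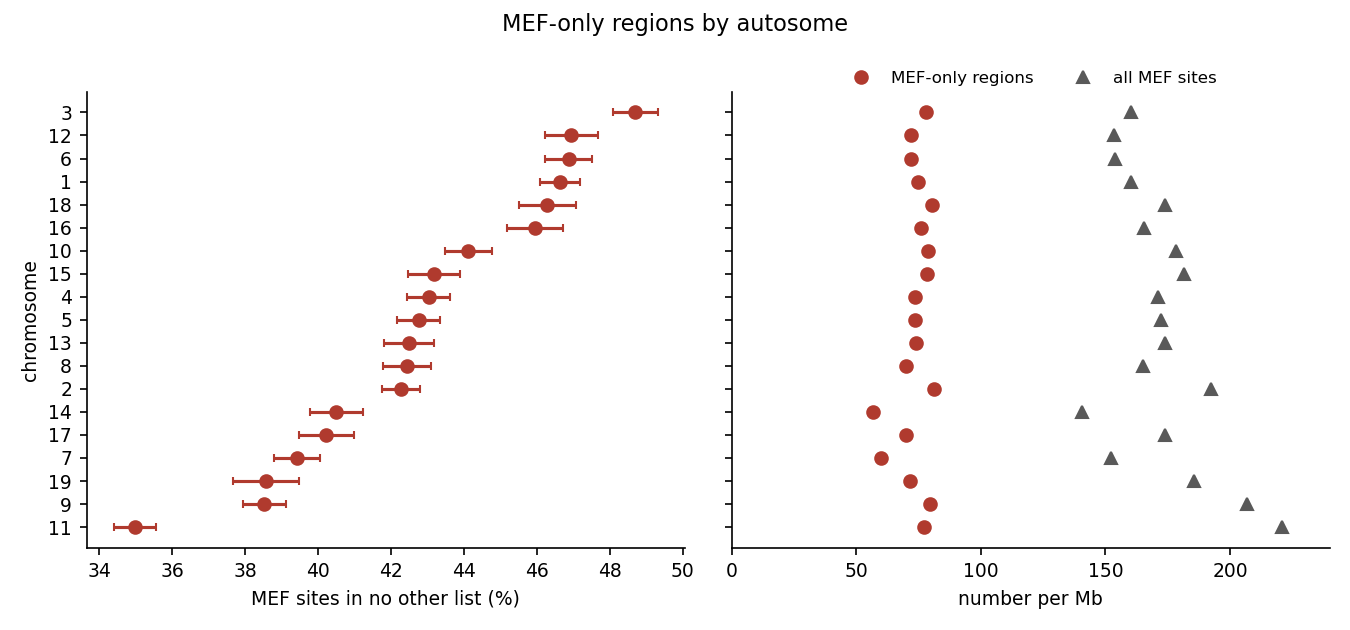
Share of MEF sites in no other list by autosome (left, percent, exact 95% intervals) and the number per Mb of MEF-only regions (red circles) and of all MEF sites (grey triangles) on the same chromosomes (right). Chromosomes 11 and 3 mark the ends of the share, at 35.0% and 48.7%, with almost equal densities of MEF-only regions.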

How the data were processed

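Per the labels' protocols, FAIRE DNA was amplified by PCR, gel-selected at 150 to 400 bp and sequenced on Illumina instruments. CASAVA 1.8 and build mm9 are named in the submitters' processing notes. Each deposited list gives positions, the authors' score of each site and a display score, which was within 1 of the score times 100, with 1000 as its ceiling. The caller is named only as qeseq in the names of the lists; for the aligner, the thresholds and the part of the genomic control: not given in the sources used here. Scores served to describe or rank sites within a list.

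Intervals were read as 0-based half-open, printed 1-based, and merged where they shared 1 bp or more; bedtools 2.31.1 gave the same 1121520 regions and 182048 MEF-only regions. Gaps are in bp between nearest ends. Site densities around regions use midpoints, as do windows. Exact (Clopper-Pearson) 95% intervals of shares hold counting error alone and treat neighbouring sites as independent, which they are not. Named were the 10 regions of highest score, the 10 widest, the 5 longest runs and the 5 windows with the most regions; bins of 1 Mb and remote regions were added after the values were seen. The members and the lists were chosen with earlier results of these data known. Lists of equal length keep the 387312 highest-scoring autosomal sites of each. Merging and gaps were tested on simulated data. The planned work on motifs, sequences and genes was left out, as no mm9 genome or annotation was used here. The software was Python 3.11.15 with scipy 1.17.1, pandas 2.3.3, numpy 2.4.6 and matplotlib 3.10.9.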

Additional observations from a re-analysis of the deposited data

Results flagged for a closer look

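The sex chromosomes lie outside the rule, which takes autosomes alone, and they hold further MEF sites that no other list names. On chromosome X there were 6062 such regions, or 83.7% (exact 95% interval 82.8 to 84.5) of 7244 MEF sites, at 36.4 per Mb. The other lists held 4219 NSC, 2992 ESC and 0 EpiSC sites there. An MEF site on X could thus be shared with NSC or ESC alone, and the share cannot be set against that of the autosomes. On chromosome Y there were 18 of 20 MEF sites, beside 61 ESC sites and none of the other lists. These are values from data outside the autosomal count.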

How the results depend on the processing

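Leaving out comparison lists in turn, and the alternatives for nearest sites and for windows led or ranked, were added after seeing the data, and the rest was planned. Of the alternative values, 11 stayed within the interval of the reported value, or within 1.5 times for counts and ratios, and 27 moved. Keeping the top-scoring 50% of every list gave 118110 MEF-only regions, and asking for no site of another list within 500 bp left 112853. With the 50% of highest scores the share of merged regions was 18.4%, the share of MEF sites 55.6%, the median width 300 bp, the median score 4.83, the share with another list within 1 kb 39.0%, the share in runs 8.97%, the windows without other regions 13 and the windows led 22.5%. With lists of equal length these were 18.7%, 48.4%, 279 bp, 3.46, 52.8% and 7.98%, with 28.4% of windows led and NSC nearest for 47.7%. Merging sites under 200 bp apart gave 15.3%, 34.3%, 286 bp, 3.36, 47.6% and 6.28%. Windows of 50 kb without other regions numbered 39. On chromosomes 3 and 11, sites 250 to 350 bp wide gave 53.1% and 40.7%. Of the 182048 regions, 93.4% were MEF-only with lists of equal length too, 79.9% with wider merging and 50.6% with the highest scores, where others had been removed for their own score. Fewer sites change the counts and scores by construction; otherwise the cause was not tested. No paired analysis was possible because a cell type is represented by 1 list alone, and no replicate could be left out. Depth is unknown and limits how far lists can be compared.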
